A study of Mus musculus with 6 samples.

Results

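A set of 10 genes that act in blood stem and progenitor cells, Cd34, Procr, Slamf1, Hoxa9, Meis1, Hlf, Mecom, Gata2, Lmo2 and Tal1, were compared between bone marrow of diabetic and wild type mice. The 10 genes were taken by symbol out of 19938 genes that the array measured with a probe set of exactly 1 symbol, and where a gene had several such sets the one with the highest mean over all arrays was used. Of the 10, 8 lay above a filter on level that kept 12029 genes, and Mecom and Procr lay below it. The filter asked for a mean log2 signal of at least 7.5025, the 40th percentile of the named probe sets.

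Total RNA came from cells flushed from the shafts of femurs and tibiae, with no sorting step in the labels, and was hybridised to 6 Affymetrix arrays, 3 for each group. All mice were male and 10 weeks old and had no further treatment. The labels give both groups a BKS background with the Leprdb allele in the strain name. Lepr encodes the leptin receptor, and its db allele causes obesity and type 2 diabetes when homozygous. The genotype labels do not settle which alleles of Lepr each group carried, and the sources used here do not say whether an array held 1 animal or a pool. The p-values therefore measure the spread between these samples, which may be partly technical.

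The deposited values are log2 signals, so a difference of 1 is a doubling. Array medians ran from 7.67 to 7.73, the correlation between arrays ran from 0.990 to 0.994, and no 2 arrays held identical values. Lepr itself was below the filter, at 5.80 ± 0.14 on the wild type and 5.69 ± 0.04 on the diabetic arrays (SD, n = 3 each), and does not check the labels, since its probes were not placed against the altered part of the gene. As the labelled tissue calls for, all 8 neutrophil markers, all 8 measured erythroid markers and 6 of 7 measured B cell precursor markers lay above the filter.

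Blood stem cells are rare cells of the marrow that both renew themselves and give rise to every blood lineage. Surface proteins such as CD34, the protein C receptor (Procr) and SLAMF1 (CD150) are used to sort them, while HOXA9 with its cofactor MEIS1, HLF and MECOM are transcription factors linked to their self-renewal. GATA2, LMO2 and TAL1 bind DNA as parts of shared complexes that set up the stem cell programme, and LMO2 and TAL1 go on to work with GATA1 in red cell precursors and megakaryocytes. In whole marrow, fewer cells of a type and less RNA per cell cannot be told apart.

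None of the 10 genes differed between the groups past the threshold of an adjusted p of 0.05 (limma, Benjamini-Hochberg over all genes tested, two-sided). The count was 0 of 8 genes above the filter, where 0.432% of all genes passed, and 0 of 10 in the fit of all named genes, where 0.286% passed. At an unadjusted p of 0.05 the count was also 0 of 8 and 0 of 10, against backgrounds of 7.18% and 5.9%. On average 7 of the 10 were higher and 3 lower in diabetic marrow, where 51.7% of all named genes were higher. The median difference, diabetic minus wild type, was 0.05 on the log2 scale over the 10 genes and 0.00 over all named genes. For 1 gene of 10, Hoxa9, the arrays of the groups did not overlap, against 10.8% of all named genes, and 6.01% with the diabetic arrays all higher.

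**Figure D1:**
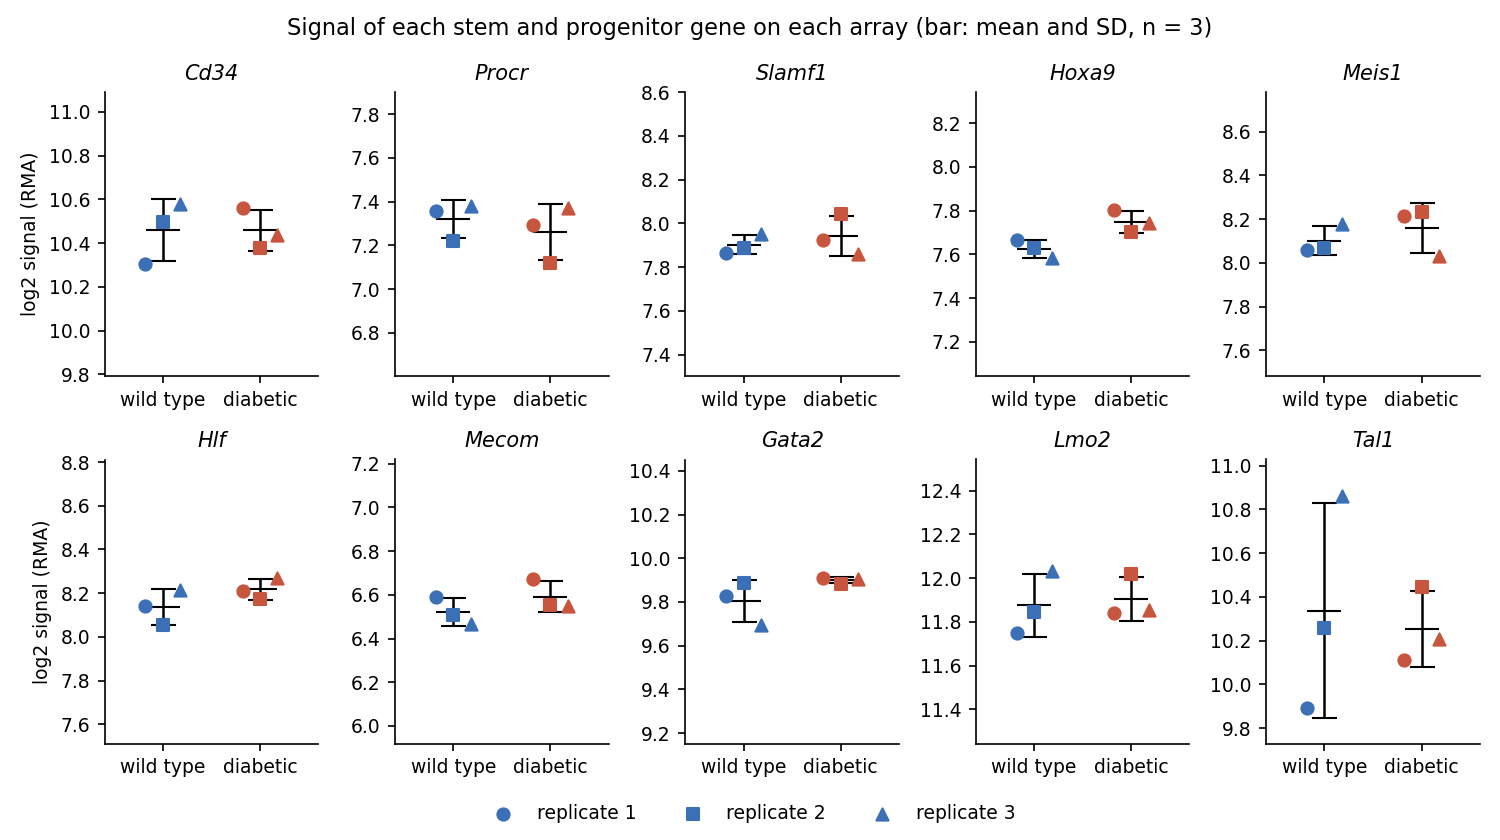
Log2 signal of each of the 10 genes on each array, wild type in blue and diabetic in red, with marker shapes for replicates 1 to 3, and the bar giving the mean and SD (n = 3). The axes span equal ranges but start at different levels. Tal1 spreads most among the wild type arrays, from 9.89 to 10.86, the 3 diabetic Gata2 values lie between 9.88 and 9.91, and Hoxa9 is the 1 gene whose groups do not overlap.

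Among the surface proteins, Cd34 on chromosome 1 encodes a sialomucin carried by progenitors and also by endothelial cells. Its log2 signal was 10.30, 10.49 and 10.58 on wild type arrays 1 to 3 and 10.56, 10.38 and 10.44 on diabetic arrays 1 to 3. The lowest and the highest values were both wild type, and the diabetic range lay inside the wild type one. The difference was -0.00 ± 0.09 (SE, limma adjusted p = 0.9995), with a 95% interval from -0.20 to 0.20, or a fold change between 0.869 and 1.15. Its sign turned when single arrays were left out, with values from -0.08 to 0.06.

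Slamf1 on chromosome 1 encodes CD150, a receptor of the SLAM family that marks long-term stem cells and also lymphoid cells. It read 7.87, 7.89 and 7.95 on the wild type and 7.92, 8.04 and 7.86 on the diabetic arrays. Diabetic array 2 was the highest and diabetic array 3 the lowest of the 6. The difference was 0.04 ± 0.07 (limma adjusted p = 0.981, 95% interval -0.11 to 0.20), and it was -0.01 without diabetic array 2.

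Procr on chromosome 2 encodes the endothelial protein C receptor, which binds activated protein C and is shared by stem cells and endothelium. Its log2 signal, below the filter, was 7.36, 7.22 and 7.38 in wild type and 7.30, 7.12 and 7.37 in diabetic marrow. The groups overlapped nearly whole. The difference was -0.06 ± 0.08 (limma adjusted p = 0.999, 95% interval -0.25 to 0.13), and it was 0.01 without diabetic array 2. The table carries no detection calls, so whether a signal this low stood above background is not known. The same holds for Hoxa9, Slamf1, Meis1 and Hlf, whose mean signals of 7.69 to 8.18 lay not far above the filter.

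Endothelial cells could add to Cd34 and Procr. Of 10 endothelial markers 5 lay above the filter, among them Pecam1 and Cdh5, and none passed the threshold. The mean log2 signal of these 5 ran from 8.45 to 8.48 on the wild type and from 8.37 to 8.42 on the diabetic arrays, and that of all 10 from 7.72 to 7.85 and from 7.69 to 7.79. The groups thus overlapped over all 10 markers but not over the 5. On average 8 of the 10 markers were lower and 2 higher in diabetic marrow, and all 5 above the filter were lower. Tek, a vascular receptor below the filter, was among the 2 and was higher on all diabetic arrays. It differed by 0.17 ± 0.07 (limma unadjusted p = 0.0341, adjusted p = 0.791), and was chosen for mention after its values were seen. The part of endothelial cells in Cd34 and Procr was not tested.

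Hoxa9, on chromosome 6, encodes a homeobox factor that is high in stem and early progenitor cells and falls as they mature. It read 7.66, 7.63 and 7.58 on the wild type and 7.80, 7.70 and 7.74 on the diabetic arrays. All diabetic arrays lay above all wild type ones, with means of 7.62 ± 0.04 and 7.75 ± 0.05 (SD, n = 3 each). The difference was 0.12 ± 0.06 (SE, limma unadjusted p = 0.0682, adjusted p = 0.740), 1.09-fold, with a 95% interval from -0.01 to 0.26. In size it was no extreme, since 81.8% of all named genes differed by less. With array weights, an alternative that gave most of the weight to a single wild type array, Hoxa9 had an adjusted p of 0.0250 and Hlf one of 0.0325.

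Meis1, the homeobox cofactor that binds DNA with HOXA9, lies on chromosome 11. Its log2 signal was 8.06, 8.07 and 8.18 on the wild type and 8.21, 8.23 and 8.03 on the diabetic arrays. Diabetic array 3 was the lowest of all and the other two diabetic arrays were the highest. The difference was 0.06 ± 0.08 (limma adjusted p = 0.974, 95% interval -0.12 to 0.23), and it was 0.021 without diabetic array 2 and 0.12 without diabetic array 3.

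Hlf, also on chromosome 11, encodes a PAR bZIP factor that is restricted to stem and early progenitor cells within blood. It gave 8.14, 8.05 and 8.22 in wild type and 8.21, 8.17 and 8.27 in diabetic marrow, so the groups overlapped with the diabetic values towards the top. The difference was 0.08 ± 0.07 (limma adjusted p = 0.932, 95% interval -0.07 to 0.23), and it stayed above 0 with each array left out in turn, between 0.04 and 0.12.

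Mecom on chromosome 3 encodes EVI1, a zinc finger factor needed for stem cell maintenance, and longer PR-domain forms. Its log2 signal, below the filter, was 6.59, 6.51 and 6.47 on the wild type and 6.67, 6.55 and 6.55 on the diabetic arrays. The groups overlapped by the reading of wild type array 1. The difference was 0.07 ± 0.07 (limma adjusted p = 0.993) and 0.030 without diabetic array 1. A second Mecom probe set, dimmer still, differed by 0.04 ± 0.08 in a separate fit of every probe set with 1 symbol. As for Procr, no detection call was at hand.

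Gata2 on chromosome 6 encodes the zinc finger factor that is needed to form and keep stem cells, and mast cells and basophils carry it too. The wild type arrays read 9.83, 9.89 and 9.70 and the diabetic arrays 9.91, 9.88 and 9.91. Wild type array 3 was low, and the diabetic arrays were nearly equal, with an SD of 0.0134 where the wild type SD was 0.0970. A diabetic SD above that of Gata2 was found for 97.6% of the genes above the filter; with 3 arrays an SD is itself imprecise and its difference was not tested. The mean difference was 0.10 ± 0.07 (limma adjusted p = 0.907, 95% interval -0.06 to 0.25), and it was 0.042 without wild type array 3 and 0.025 under array weights. Of 8 mast cell and basophil markers 6 lay above the filter, and none passed the threshold. The mean of these 6 ran from 10.42 to 10.45 on the wild type and from 10.12 to 10.48 on the diabetic arrays. On average 6 of the 8 markers were lower and 2 higher in diabetic marrow, and 5 of the 6 above the filter were lower. The part of mast cells and basophils in Gata2 was not tested.

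**Figure D2:**
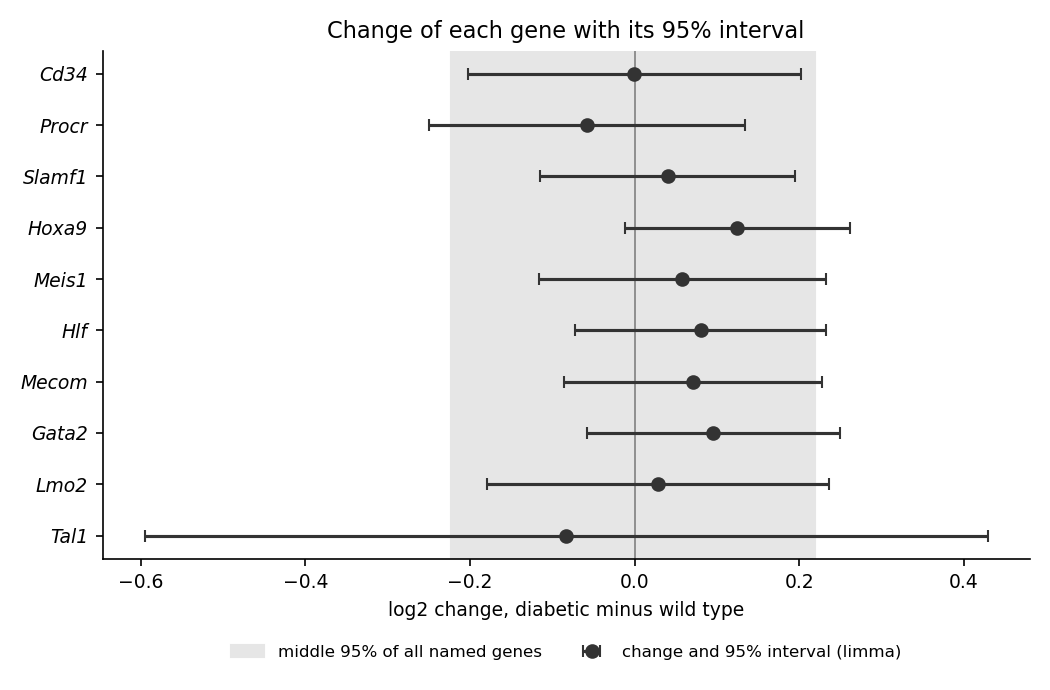
Log2 difference, diabetic minus wild type, of each gene with its 95% interval from limma (6 arrays), against the grey band that holds the middle 95% of differences of all named genes, from -0.22 to 0.22. Every interval includes 0, and that of Tal1, from -0.60 to 0.43, is the widest.

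Lmo2 on chromosome 2 encodes the LIM-domain bridge that joins TAL1 and GATA factors in one complex. Its log2 signal was 11.75, 11.84 and 12.03 on the wild type and 11.84, 12.02 and 11.85 on the diabetic arrays. Wild type array 3 and diabetic array 2 stood together at the top and wild type array 1 at the bottom. The difference was 0.03 ± 0.09 (limma adjusted p = 0.993, 95% interval -0.18 to 0.24), and it was -0.03 without wild type array 1 or without diabetic array 2.

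Tal1 encodes the helix-loop-helix factor of the same complex, which specifies blood in the embryo and later serves erythroid cells and megakaryocytes. It read 9.89, 10.26 and 10.86 on the wild type and 10.11, 10.45 and 10.21 on the diabetic arrays. The wild type arrays held both the lowest and the highest reading, and their SD of 0.49 was larger than that of 99.2% of the genes above the filter. The difference was -0.08 ± 0.22 (limma adjusted p = 0.993), with a 95% interval from -0.60 to 0.43, a fold change between 0.662 and 1.35. It was 0.18 without wild type array 3 and -0.30 without wild type array 1, so that 1 wild type array set its sign. Tal1 lies on chromosome 4, as Lepr does, so an allele carried along with Lepr and an effect of diabetes cannot be told apart for this gene.

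Tal1 and Lmo2 were high on the arrays on which erythroid markers were high, in both groups. The mean log2 signal of 8 erythroid genes (Klf1, Alas2, Epor, Ermap, Slc4a1, Car1, Tfrc and Ank1) was 11.89, 12.08 and 12.44 on the wild type and 12.07, 12.40 and 12.11 on the diabetic arrays. Between Lmo2 and this mean Pearson's r over the 6 arrays was 0.999 (exact permutation p = 0.00139, the smallest that 6 arrays allow) and Spearman's rho = 1 (exact permutation p = 0.00278). For Tal1 r was 0.932 (exact permutation p = 0.00417) and rho 0.943 (exact permutation p = 0.0167). Without the 2 arrays farthest from the median of the marker mean, wild type array 3 and diabetic array 2, r was 0.998 for Lmo2 and 0.941 for Tal1. These were 2 of 70 relations, each of 10 genes against 7 marker lists. After Benjamini-Hochberg adjustment the exact permutation p became 0.0972 and 0.146, so neither passed 0.05. With 6 arrays and 70 relations, a single relation at the smallest possible p is adjusted to 0.0972. No relation alone could therefore have passed 0.05, whatever its r. Each group alone has 3 arrays, too few for a correlation of its own.

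**Figure D3:**
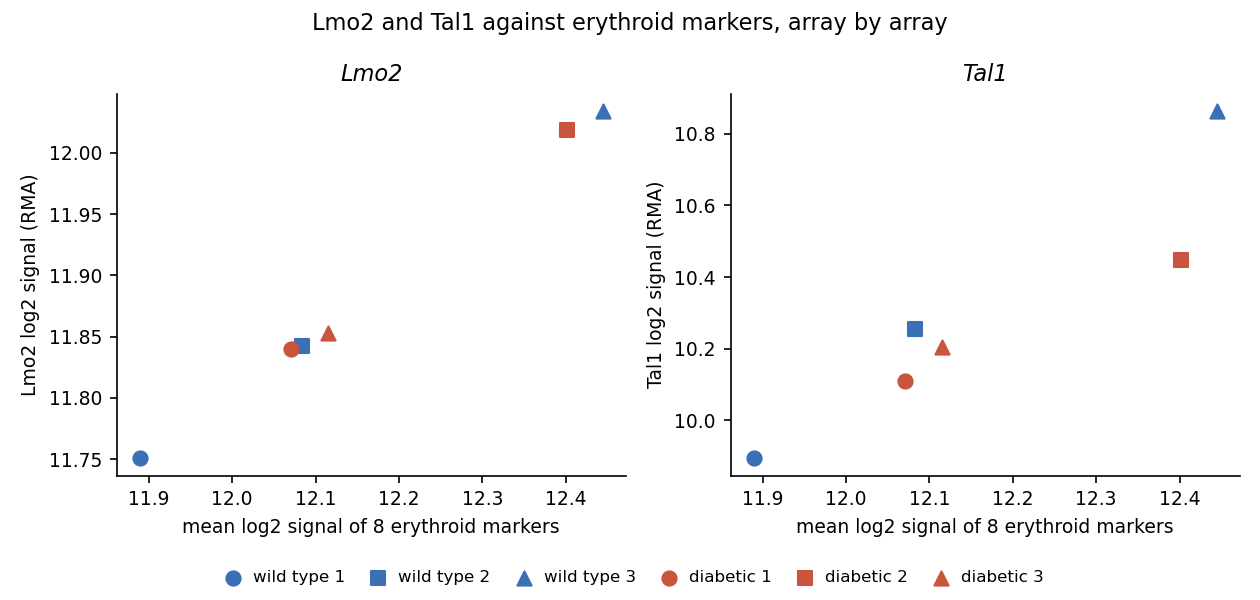
Log2 signal of Lmo2 (left) and Tal1 (right) on each array against the mean log2 signal of 8 erythroid markers, wild type in blue and diabetic in red, with marker shapes for replicates. In both panels wild type array 1 is at the lower left and wild type array 3 at the upper right, and arrays of both groups are mixed along the way.

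The erythroid marker means of the groups overlapped, and 0 of the 8 markers passed the threshold, where 0.432% of genes above the filter did. Lmo2 and Tal1 were also highest where megakaryocyte markers were, with r = 0.857 (exact permutation p = 0.025, adjusted 0.35) and 0.914 (exact permutation p = 0.0167, adjusted 0.292). For the megakaryocyte mean the 2 farthest arrays were wild type arrays 1 and 3, and without them r was 0.54 and 0.39. Wild type array 1, the lowest, stayed in for the erythroid mean. The values left for the erythroid and megakaryocyte means are therefore not comparable. With the erythroid mean as a covariate, an alternative chosen after seeing the data, the difference of Lmo2 was -0.00 ± 0.05. That of Tal1 was -0.17 ± 0.07 (limma unadjusted p = 0.0469, adjusted p = 0.385). Hoxa9 had a smaller unadjusted p in the same fit, at 0.13 ± 0.05 (limma unadjusted p = 0.0325, adjusted p = 0.344). In this fit 115 of 12029 genes passed the adjusted threshold. The share of all genes with an unadjusted p under 0.05 in it is not given here, so these unadjusted values have no background beside them. The part of erythroid cells in Lmo2 or Tal1 was not tested further. Gata1, the erythroid partner factor, was named after its values were seen: at 9.86, 10.14 and 10.89 on the wild type and 10.08, 10.60 and 10.17 on the diabetic arrays it had the same arrays at its top and bottom.

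The promoters of the genes were read for the GATA motif, since GATA factors are the partners of LMO2 and TAL1. The motif was searched as AGATAA with its variant ending AGATAG, and as TGATAA with its variant ending TGATAG, on both strands in the 250 bases before each start in RefSeq's GRCm38.p6 table, which held 12 starts for 9 of the 10 genes. Lmo2 had no start there and was not searched. The motif stood in 6 of the 12 windows, of Cd34, Hoxa9, Slamf1 and Tal1 once each and of Mecom at both starts, and in 26.5% of all 32851 promoter windows. Shown are the windows of Tal1, the gene that varied most between arrays, of Hoxa9, the gene whose groups did not overlap, and of Cd34, the surface marker with no difference in mean; capitals mark the GATA motif on either strand. The Tal1 window is chr4:115056176-115056425 (plus strand, the first of 2 starts, the other holding no match), that of Hoxa9 is chr6:52227371-52227620 (minus strand) and that of Cd34 is chr1:194938571-194938820 (plus strand).
Tal1: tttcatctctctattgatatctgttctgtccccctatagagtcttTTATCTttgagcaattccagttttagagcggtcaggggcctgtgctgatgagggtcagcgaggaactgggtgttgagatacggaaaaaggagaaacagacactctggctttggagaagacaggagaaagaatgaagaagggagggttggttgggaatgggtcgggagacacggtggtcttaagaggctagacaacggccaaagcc
Hoxa9: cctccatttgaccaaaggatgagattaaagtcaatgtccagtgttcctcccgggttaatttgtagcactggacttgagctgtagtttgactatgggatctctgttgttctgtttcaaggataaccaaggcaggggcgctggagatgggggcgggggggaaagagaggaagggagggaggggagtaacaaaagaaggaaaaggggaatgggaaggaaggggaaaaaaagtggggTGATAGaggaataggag
Cd34: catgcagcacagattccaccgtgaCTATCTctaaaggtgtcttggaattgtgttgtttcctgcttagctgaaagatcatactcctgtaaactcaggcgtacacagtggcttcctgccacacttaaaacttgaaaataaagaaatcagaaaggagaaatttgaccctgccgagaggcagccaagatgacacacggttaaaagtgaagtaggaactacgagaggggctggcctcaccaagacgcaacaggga
The first base of the match lies 205 bases before the start in Tal1, 17 in Hoxa9 and 226 in Cd34. The match in Tal1 and in Cd34 reads on the opposite strand. An E-box, CANNTG, the motif type that TAL1 dimers bind, was in 6 of the 12 windows and in 66.2% of all, and the ETS motif, CCGGAA or CAGGAA, in 4 of 12 and 35.1% of all. The MEIS motif, TGACAG, was in 1 of 12 and 15.9% of all, and the PAR bZIP motif, TTACGTAA or TTACATAA, in 0 of 12 and 0.931% of all. Such matches are descriptions of the letters in these windows only.

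The genes did not vary as one group. Over the 45 pairs among the 10, Pearson's r across the 6 arrays had a median of 0.07, lay above 0 in 24 pairs and was highest between Lmo2 and Tal1, at 0.923, and lowest between Mecom and Tal1, at -0.71. Wild type array 3 held the highest reading for 4 of the 10 genes and the lowest for 3. These pairs share the same 6 arrays and are a description.

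The genes whose pattern over the 6 arrays was most like each of the 8 genes above the filter were also listed, with r between 0.976 and 0.998. For Tal1 they were Vangl1, Klf1 and Znrf3, and for Lmo2 Aldh1a1, Hace1 and Tspo2; Klf1 encodes an erythroid transcription factor and is one of the erythroid markers above. For Gata2 they were Akap9, Rp2 and Tnrc6a, for Hoxa9 Rapgef1, Nfx1 and Slc28a2b, and for Meis1 Srek1ip1, Rpl24 and Hyls1. For Cd34 they were Psmg4, P2ry1 and 0610009B22Rik, for Hlf Adamtsl5, Rps21 and Ctnnbl1, and for Slamf1 Cir1, Foxo4 and Usp6nl. With 12029 genes to choose from and 6 arrays, an r of this size was reached for each of the 8 genes.

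**Figure D4:**
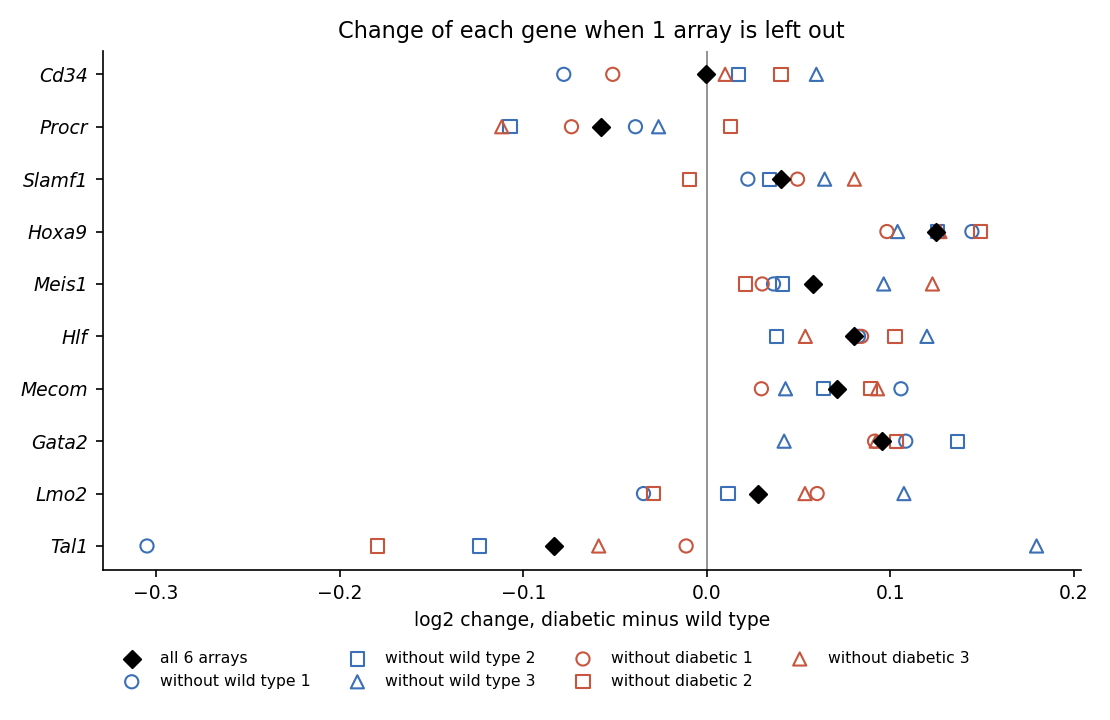
Log2 difference, diabetic minus wild type, of each gene with all 6 arrays (black diamond) and with each array left out in turn (open symbols, blue for wild type and red for diabetic arrays). Hoxa9, Meis1, Hlf, Mecom and Gata2 stay above 0 throughout, whereas Cd34, Procr, Slamf1, Lmo2 and Tal1 cross it, and Tal1 ranges most, from -0.30 to 0.18.

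Genes that work with these 10 were described through lists, and 0 genes of any of the 6 lists passed the adjusted threshold (limma), where 0.432% of genes above the filter did. The 15 partner factors of the GATA, TAL1 and RUNX complexes all lay above the filter, 7 higher and 8 lower, with a median difference of -0.00. An unadjusted p under 0.05 was found for 1 gene of the 15, against a background of 7.18%. That gene was Spi1, encoding PU.1, the myeloid and B cell ETS factor, at 12.15, 12.22 and 12.17 on the wild type and 12.46, 12.23 and 12.44 on the diabetic arrays, a difference of 0.20 ± 0.08 (limma unadjusted p = 0.0343, adjusted p = 0.640). Cbfa2t3, a corepressor of the TAL1 complex, differed by -0.20 ± 0.09, Tcf3, whose E proteins pair with TAL1, by -0.15 ± 0.09 and Fli1, an ETS factor of stem cells and megakaryocytes, by 0.11 ± 0.07.

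Of 14 HOX, MEIS, PBX and related genes 13 were measured and 9 lay above the filter, with a median of 0.05 over the 9 and 0.03 over the 13, of which 11 were higher. Pbx3, which pairs with HOX proteins, differed by 0.26 ± 0.12 (limma adjusted p = 0.736), with wild type array 1 low at 9.07 and the other 5 arrays between 9.42 and 9.72. Pbx2 differed by 0.10 ± 0.08, Hoxa7 by 0.08 ± 0.07 and Pknox1, a relative of MEIS1, by 0.05 ± 0.06. None of the 13 had an unadjusted p under 0.05.

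Of 15 further genes enriched in stem cells 13 were measured and 11 lay above the filter, 5 higher and 6 lower with a median of -0.05; over the 13, which include Tek, 7 were higher and 6 lower and the median was 0.03. Kit, the receptor for stem cell factor on stem, progenitor and mast cells, read 9.70, 9.89 and 9.99 on the wild type and 10.09, 10.12 and 10.11 on the diabetic arrays. All diabetic arrays were higher, by 0.24 ± 0.08 on average (limma unadjusted p = 0.0169, adjusted p = 0.557). Of the 11 genes above the filter 1 had an unadjusted p under 0.05, against a background of 7.18%. Esam, an adhesion molecule of stem cells and endothelium, differed by -0.10 ± 0.07, Prdm16, a factor of stem cell maintenance, by -0.07 ± 0.05 and Cd93, which early B cells and myeloid cells also carry, by -0.20 ± 0.18.

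Of 12 genes of later progenitors all lay above the filter, 5 higher and 7 lower with a median of -0.01. Flt3, the cytokine receptor of multipotent and lymphoid progenitors, read 8.89, 8.75 and 8.75 on the wild type and 8.999, 9.04 and 9.03 on the diabetic arrays. The groups did not overlap and differed by 0.23 ± 0.06 (limma unadjusted p = 0.00753, adjusted p = 0.430). Of the 12 genes 1 had an unadjusted p under 0.05, against a background of 7.18%. Satb1, a chromatin organiser of lymphoid progenitors, differed by 0.22 ± 0.10, Cebpa, the factor of granulocyte and macrophage progenitors, by 0.13 ± 0.07 and Sox4, a factor of early B cells, by -0.26 ± 0.21. Of 12 self-renewal and quiescence genes 11 were measured, 8 higher and 3 lower with a median of 0.09. Of the 11, 2 had an unadjusted p under 0.05, against a background of 7.18%. The groups did not overlap for 3, against 10.8% of all named genes. Nr4a1, a nuclear receptor of quiescence that is also an immediate early gene, differed by 0.32 ± 0.13, Gfi1, a repressor of stem cells and granulocytes, by 0.23 ± 0.10, Zbtb16, the zinc finger factor PLZF, by 0.16 ± 0.07 and Asxl1, a chromatin regulator, by 0.09 ± 0.05.

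The 8 other SLAM family genes and their relatives had a median of -0.24, whereas the value of Slamf1 was 0.04. Of these 8, 4 had an unadjusted p under 0.05, against a background of 7.18%, and 3 of these were lower, against 3.2%. Ly9, a receptor of T and B cells, read 10.40, 10.34 and 10.21 on the wild type and 9.99, 10.08 and 10.05 on the diabetic arrays, and differed by -0.28 ± 0.07 (limma adjusted p = 0.293). Cd84, found on several leukocytes, differed by 0.32 ± 0.08 in the other direction (limma adjusted p = 0.335), Slamf8 of myeloid cells by -0.21 ± 0.08 and Slamf9 by -0.32 ± 0.13. The mean of 6 B cell precursor markers was 11.19, 10.88 and 10.04 on the wild type and 10.39, 10.50 and 10.19 on the diabetic arrays. Wild type array 1 was the highest and wild type array 3 the lowest, and the groups overlapped. All 6 markers were lower on average in diabetic marrow, with a median difference of -0.34, and none passed the adjusted threshold. The part of B cell precursors in the SLAM values was not tested.

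**Figure D5:**
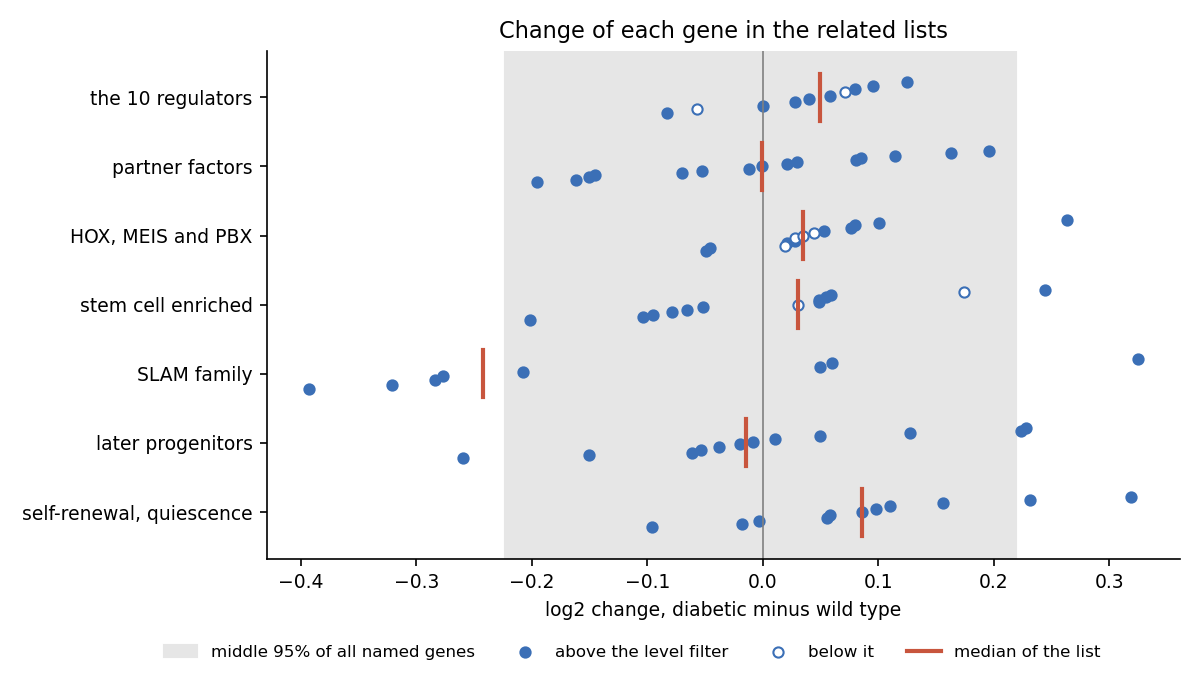
Log2 difference, diabetic minus wild type, of each gene of the 10 regulators and of 6 related lists, filled where the gene lay above the level filter and open below it, with the median of each list in red and the middle 95% of all named genes in grey. The 10 regulators lie between -0.08 and 0.12, inside the grey band. The band describes single genes and is no measure for the medians of lists.

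The means of the neutrophil and of the T cell markers overlapped between the groups. The mean of the 8 neutrophil markers ran from 13.37 to 13.44 on the wild type and from 13.31 to 13.50 on the diabetic arrays, and that of the 6 T cell markers above the filter from 8.22 to 8.46 and from 8.18 to 8.65. Of the 70 relations between the 10 genes and marker lists, 0 passed after Benjamini-Hochberg adjustment, which no relation alone could have done with 6 arrays. Before adjustment 7 had an exact permutation p under 0.05. Besides those of Lmo2 and Tal1 these were Meis1 and Slamf1 against the mast cell and basophil mean, with r = -0.81 and -0.87, and Slamf1 against the neutrophil mean, with r = -0.82. Without the 2 arrays farthest from the median of each marker mean these became -0.50, -0.37 and 0.52. The arrays left out were diabetic arrays 1 and 2 for the mast cell and basophil mean. For the neutrophil mean they were wild type array 3 and diabetic array 2. An r over the 4 arrays left is imprecise.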

How the data were processed

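RNA of 6 bone marrow samples was hybridised to Affymetrix arrays. The deposited values are log2 signals; the submitters' processing notes name RMA and Affymetrix Expression Console, with no version. RMA equalises the arrays' distributions, which hides a shift common to most genes. Of 35556 probe sets 21789 had 1 symbol in the platform annotation, 1621 several and 12146 none, and none of those with several held one of the 10 genes. Differences were fitted with limma 3.58.1 (lmFit, eBayes, equal weights, no block) in R 4.3.3 on 12029 genes above the level filter, or on all 19938 for genes below it. The fit was tested on simulated data, with 50 changed genes for each size of change. It recovered 94% of log2 changes of -1 and of 1, 68% of -0.5 and 42% of 0.5, with 11 false calls. Exact permutation tests and motif searches used Python 3.11.15. Of each related list up to 4 genes were named, by adjusted and then unadjusted p among genes above the filter, and for each regulator the 3 most alike. The genes and lists were chosen with earlier results of these data known, and the motifs after the files were read. The level filter was first taken as a percentile over probe sets with 1 symbol, and was changed to all named sets, as the design states it, after those results were seen. One part of the genotype labels is not reported here.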

Additional observations from a re-analysis of the deposited data

How the results depend on the processing

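Other settings were no level filter or one at the 60th percentile, quantile normalization or centring on the median, averaging the sets of a gene, trended and robust eBayes, array weights, the replicate block, the table of all probe sets, and 1 array left out at a time. Of the 8 genes above the filter (4 at the 60th percentile) none passed the threshold under these except under array weights, where 2 did: Hoxa9 (0.15, adjusted p = 0.0250) and Hlf (0.15, adjusted p = 0.0325), whose adjusted p reached 0.999989 under other settings. There 1878 genes passed; wild type array 2 had a weight of 11.7, the others between 0.25 and 2.59, and the estimation stopped before it converged. The median difference of the 10 genes stayed between 0.03 and 0.08. Of genes above the filter 52 passed, 23.1% of them higher (52.8% under array weights); 2 passed with the replicate block, 50% of them higher, 1 of all probe sets, and 3 to 70 with an array left out (13 without wild type array 2 and 5, 3 and 12 without diabetic arrays 1, 2 and 3). Of all named genes 57 passed, 7 with the replicate block and 3 to 71 with an array left out (16 without wild type array 2 and 6, 3 and 14 without diabetic arrays 1, 2 and 3). The causes were not tested. Same-numbered arrays deviated from their group means with r = 0.33, -0.04 and -0.05, and differently numbered arrays with r between -0.31 and 0.27. With 3 arrays a group this cannot settle whether the numbers pair the samples, and the sources used here do not say.

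Signs turned for Cd34 (0.0036 with median centring, 0.030 under array weights, and between -0.078 and 0.060 with an array left out), and, with an array left out, for Procr (-0.11 to 0.013), Slamf1 (-0.0092 to 0.080), Lmo2 (-0.034 to 0.11) and Tal1 (-0.30 to 0.18), and for Lmo2 (-0.0016) with the erythroid covariate. In that fit, chosen after seeing the data, 115 genes passed and none of the 10. With the level filter taken over probe sets with 1 symbol, the form run first, 49 of 11940 genes passed and none of the 8 tested. Mecom and Procr, below the filter, were fitted only without it, with the replicate block, over all probe sets, with the covariate and with an array left out, and passed in none. The precision is limited by the 3 arrays a group, and the 95% intervals above give it.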
